A study of Mus musculus with 26 samples.

Results

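Mesenteric arteries of mice in which a serine of pannexin 1, S205, is replaced by alanine (S205A) were compared with arteries of their own controls, across all genes. The comparison used 8 of the 26 RNA sequencing libraries of the series, 4 S205A and 4 S205A control libraries, assigned by their titles and library names. The labels give the genotype S205A+/+ for the mutants and S205A-/- for the controls. All mice were males aged 8 weeks, and the controls are described as littermates or wild types. The mutation is carried by the whole animal as far as the labels say, since they name no tissue-specific driver. The design text speaks of 3 vascular trees per genotype, whereas each S205A group holds 4 libraries. Nothing in the labels says whether the libraries of a group came from separate animals, so p-values measure the spread between these libraries, which may be partly technical. A library name that carries a number beginning with 22 marks controls 1 to 3 and S205A 2 to 4. Control 4 and S205A 1 carry other numbers, and these sets of libraries are called the 22 series and the other series. The labels do not say what these numbers mean.

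Pannexin 1 forms large channels in the plasma membrane through which cells release ATP and other small molecules. In resistance arteries, the small vessels that set blood flow into a tissue, ATP released through pannexin 1 in smooth muscle is known to act back on purinergic receptors and to support the constriction evoked by noradrenaline. Ectonucleotidases on the cell surface break released ATP down to adenosine, which has receptors of its own. S205 is a residue of the channel protein that can be phosphorylated, and alanine cannot be.

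The changed residue is shown first because it is what separates the genotypes. In the reference genome, the S205 codon, 1 of the 425 codons of Panx1, lies in exon 4 of 5, on the minus strand at chr9:14919243-14919245 (GRCm39). The reference codon stands in capitals, with 10 codons on either side, read in the direction of transcription from chr9:14919213-14919275.
Panx1 reference around S205: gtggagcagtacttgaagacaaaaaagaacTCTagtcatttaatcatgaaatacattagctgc
Gene counts carry no base calls, so the substitution itself cannot be read from these data.

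Panx1 RNA was present in every library of both groups and at a low level. The 4 controls held 16, 74, 28 and 52 counts and the 4 S205A libraries 95, 54, 89 and 29 counts. In CPM, counts scaled to a normalized library size of 1e6, Panx1 was 2.39 ± 1.55 (SD, n = 4) in the controls and 3.88 ± 1.53 (SD, n = 4) in S205A arteries. The groups overlapped, and the log2 difference of 0.70 (SE 0.528) was within the spread between libraries (exact two-sided permutation test on CPM, p = 0.2, where the smallest p possible is 0.0286). With 1 library left out in turn, the log2 difference in edgeR ran from 0.42 to 1.31. The paralogs were almost silent: Panx2 had 0 to 12 counts per library. Panx3 had 0 counts in all 8 libraries, which allows up to 3 counts per library. Among the 7 tested genes of the channel family list, which adds connexins, Calhm2 and the volume-regulated channel subunit Lrrc8a, 4 were higher and 3 lower in S205A, with a median log2 difference of 0.06. Gja4 and Gja5, connexins of the arterial endothelium, differed by 0.06 (SE 0.167) and -0.22 (SE 0.555). Lrrc8a stood at 29.9, 31.0, 37.8 and 37.9 CPM in the controls and at 21.5, 24.5, 24.9 and 33.4 CPM in S205A. Its ranges overlapped, and its unadjusted p was 0.0355 in edgeR.

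Total counts ran from 16855061 to 20152220 in the controls and from 14895969 to 20274590 in the S205A libraries. Ribosomal RNA made up 3.03% and 3.06% of counts in the 2 libraries of the other series, against 0.0832% to 0.139% in the 22 series. Mitochondrial genes took 7.29%, 5.85%, 5.49% and 6.61% of counts in the controls and 5.24%, 4.96%, 4.77% and 4.21% in S205A, so that every mutant library was below every control. This share moved with the genotype groups, and its part in the differences of other genes was not tested. The first principal component (32.5% of the variance) separated the series, and each group holds 3 libraries of the 22 series and 1 of the other, so series was a term in the tests. The second component (21.5%) separated control 1 from control 2. These also held the lowest and the highest summed level of the 16 endothelial markers, 2072 and 15177 CPM, while the 4 S205A libraries lay between 6956 and 8866 CPM. The label of the tissue was borne out by the smooth muscle contractile list, whose 17 markers summed to 38065 to 69097 CPM in the controls and 43665 to 56913 CPM in S205A. In bulk tissue, fewer cells of a type and less RNA per cell cannot be told apart, and this holds for every gene group described.

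Most genes that separated the groups were higher in S205A. The main test, edgeR's quasi-likelihood test with the series term, put 0 of 15709 genes past an adjusted p of 0.05 (0% of genes tested). At an unadjusted p under 0.05 it gave 628 genes (4%), 445 of them higher (2.83%) and 183 lower in S205A (1.16%). DESeq2 with the same terms on the same counts put 71 of 18339 genes past the threshold (0.387%), 67 higher (0.365%) and 4 lower (0.0218%). The authors' deposited table, a DESeq2 fit, gives 92 of 19399 genes as higher (0.474%) and 4 as lower (0.0206%). DESeq2 here and the authors' deposited table shared 52 calls, which are 73.2% of the first and 54.2% of the second, and all 52 had the same direction. In 180 tested genes (1.15%) all 4 S205A libraries lay above all 4 controls, and in 98 (0.624%) they lay below. The calls therefore depend on the tool, so the libraries' own values are given for each gene and every adjusted p names its source. The numbers of DESeq2 calls depended on single libraries too, with 18 genes without S205A 3, 41 without control 3, 134 without S205A 2 and 178 without control 1.

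**Figure D1:**
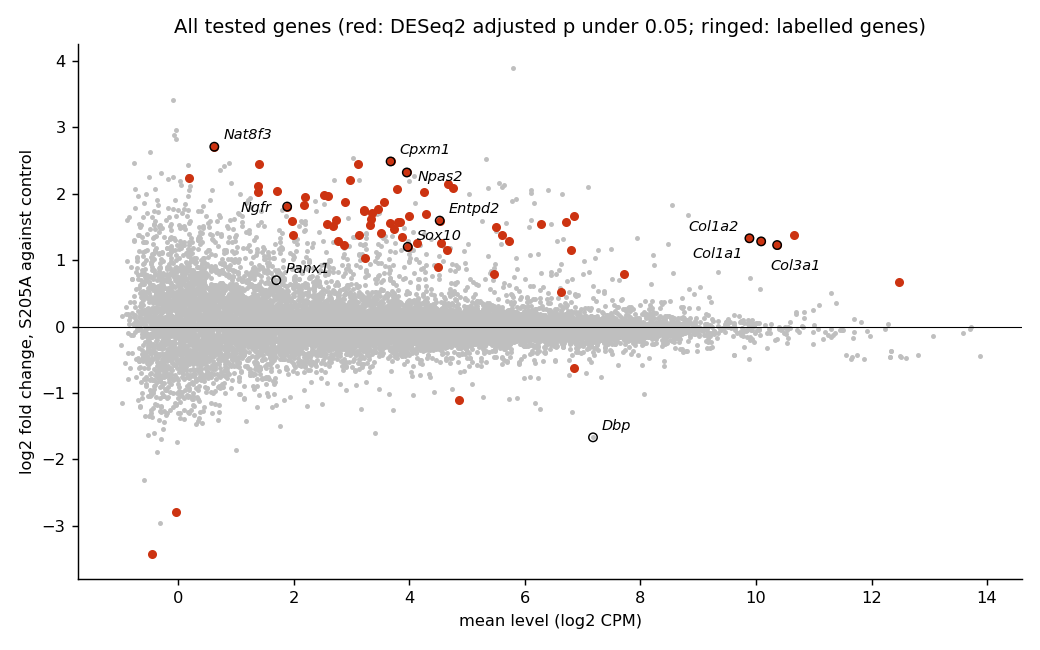
Each point is 1 of 15709 tested genes, with the mean level in log2 CPM on the horizontal axis and the log2 fold change of S205A against control from edgeR on the vertical axis. Genes past an adjusted p of 0.05 in DESeq2 are red and lie almost wholly above 0, and Panx1 (0.70) lies in the grey cloud.

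Collagen genes were higher as a group, some of them at high expression. All 18 tested collagen genes had a positive log2 difference, against 48.2% of all tested genes, with a median of 0.58 against -0.01 over all genes. By unadjusted edgeR p, 9 of the 18 were higher and 0 lower, against 2.83% and 1.16% of all tested genes. DESeq2 placed 6 past the adjusted threshold and the authors' deposited table places 5 there, all of them higher, and in 5 the groups did not overlap. Among all genes the shares on the higher side were 0.365% in DESeq2, 0.474% in the deposited table and 1.15% without overlap. The list and its members were chosen with earlier results of these data known, so these counts are a description.

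Col1a1, the main chain of type I collagen (chr11:94827050-94843868, plus strand, GRCm39), measured 779, 518, 713 and 537 CPM in the controls and 1395, 933, 2190.2 and 1654 CPM in S205A. The lowest S205A library was above the highest control. The log2 fold change was 1.28 (SE 0.26), with an adjusted p of 0.00124 in DESeq2. Col1a2, the partner chain, measured 589.5, 386, 593 and 588 CPM in the controls and 1495, 704, 1921 and 1298 CPM in S205A. Its log2 fold change was 1.33 (SE 0.297; adjusted p 0.00293 in DESeq2), again with no overlap. Col3a1, the type III chain that accompanies type I in arterial walls, rose in DESeq2 by 1.23 on the log2 scale (adjusted p 0.000995), from 825, 554, 798 and 999.8 CPM to 2131, 1121, 2229.7 and 1902 CPM. Col5a3, a type V chain, varied little among controls, at 28.4, 24.6, 26.8 and 28.3 CPM, and stood at 68.6, 52.8, 109.7 and 49.2 CPM in S205A (log2 fold change 1.38, SE 0.255; adjusted p 0.000995 in DESeq2). For these 4 genes S205A 3 was the highest library of all, and S205A 2 was the lowest mutant library for Col1a1, Col1a2 and Col3a1.

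The fibril-associated chain Col14a1 passed in DESeq2 as well (log2 fold change 1.66, SE 0.491; adjusted p 0.0128, against 0.0993 in the authors' deposited table), but control 4 at 123 CPM exceeded S205A 2 and S205A 4 at 76.5 and 97.0 CPM. Col15a1, which sits at basement membranes, was at 195, 123, 159.9 and 142 CPM in controls and at 275, 212, 295 and 285 CPM in S205A, with no overlap (0.79, SE 0.169; adjusted p 0.0156 in DESeq2). Other collagens were nearer to the controls, among them fibrillar chains. The type V chains Col5a1 and Col5a2 differed by 0.39 (SE 0.185) and 0.18 (SE 0.181). The type IV chains Col4a1 and Col4a2 differed by 0.33 (SE 0.197) and 0.18 (SE 0.196), and the type VI chains Col6a1 and Col6a2 by 0.60 (SE 0.236) and 0.56 (SE 0.234). None of these 6 passed the adjusted threshold in edgeR, in DESeq2 or in the authors' deposited table. Summed over the list, collagen RNA was 1.49 times the control mean in S205A, with 7451 to 12140 CPM in the controls and 11275 to 16590 CPM in S205A. Those ranges overlapped through S205A 2, the lowest mutant, and control 1, the highest control.

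**Figure D2:**
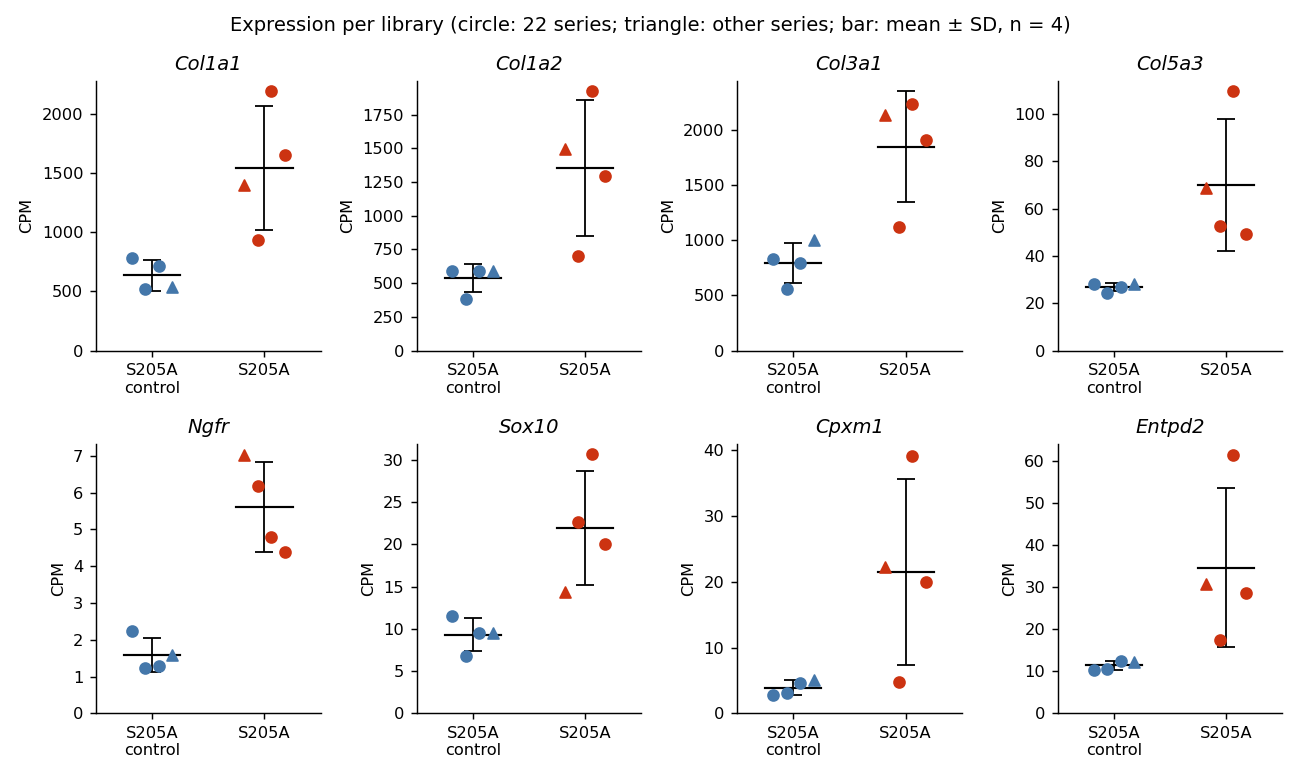
The vertical axes give CPM for 8 genes in each S205A control (blue) and S205A (red) library, with circles for the 22 series, triangles for the other series, and bars for mean ± SD (n = 4). The S205A libraries lie above all controls in every panel except Cpxm1, where S205A 2 at 4.74 CPM lies below control 4 at 5.05 CPM.

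Promoter sequence is shown for the collagen genes that moved together, with matches to the CCAAT box, a short motif bound by the factor NF-Y and long known in collagen promoters. The windows hold 300 bases, from 250 before to 50 after the annotated start, from RefSeq on GRCm38.p6. Of Col1a1, Col1a2, Col3a1 and Col5a3, 3 had an entry in the table, and 2 of these held CCAAT or its reverse complement ATTGG. The same letters occur in 37.4% of the 32851 promoters of that length. Capitals mark the matches, 2 in Col1a2 (chr6:4505368-4505667, plus strand) and 1 in Col5a3 (chr9:20815018-20815317, minus strand), and Col3a1 held 0 in its window.
Col1a2: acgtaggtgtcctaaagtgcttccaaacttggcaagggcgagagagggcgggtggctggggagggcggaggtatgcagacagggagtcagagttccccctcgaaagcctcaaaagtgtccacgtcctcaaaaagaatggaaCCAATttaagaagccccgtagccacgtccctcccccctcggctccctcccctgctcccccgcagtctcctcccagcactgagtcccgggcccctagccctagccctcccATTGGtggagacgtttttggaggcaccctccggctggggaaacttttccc
Col5a3: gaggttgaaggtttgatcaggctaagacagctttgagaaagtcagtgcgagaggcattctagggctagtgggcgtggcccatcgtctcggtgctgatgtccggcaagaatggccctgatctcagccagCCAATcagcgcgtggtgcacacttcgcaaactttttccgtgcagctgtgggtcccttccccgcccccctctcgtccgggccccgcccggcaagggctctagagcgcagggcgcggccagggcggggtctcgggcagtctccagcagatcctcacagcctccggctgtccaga
A match of letters describes the window and says nothing of binding in these arteries.

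Genes of the elastic fibre were higher in part. Of 18 tested genes 16 had a positive log2 difference, with a median of 0.31. By unadjusted edgeR p, 7 were higher and 0 lower, against 2.83% and 1.16% of all tested genes. Eln, which encodes elastin, the recoil protein of the arterial wall, stood at 3729, 5394, 3874 and 4439 CPM in the controls and at 7517, 7065, 6519 and 6794 CPM in S205A. The groups were well apart (0.68, SE 0.169), and DESeq2 gave an adjusted p of 0.0124. The authors' deposited table gives Eln an adjusted p of 0.365, so the call was not shared. The microfibril genes Fbn1 (0.71, SE 0.233) and Mfap4 (2.06, SE 0.728; adjusted p 0.0273 in the authors' deposited table and 0.468 in DESeq2 here) overlapped between groups, as did the crosslinking enzyme Loxl2 (0.80, SE 0.26). The related enzyme Loxl4 did not overlap, at 3.31 to 4.60 CPM in controls and 5.66 to 7.88 CPM in S205A, and did not pass the adjusted threshold in edgeR, DESeq2 or the authors' deposited table. Lox itself differed by 0.35 (SE 0.181).

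Matrix proteases and their inhibitors were mixed. Of 22 tested genes 18 had a positive log2 difference, with a median of 0.27. By unadjusted edgeR p, 7 were higher and 1 lower, against 2.83% and 1.16% of all tested genes. Cpxm1, a secreted member of the carboxypeptidase family (chr2:130232695-130239873, minus strand, GRCm39), had the smallest adjusted p among higher genes of the authors' deposited table, 4.64e-06. Its levels were 2.75, 3.13, 4.61 and 5.05 CPM in the controls and 22.2, 4.74, 39.2 and 19.9 CPM in S205A. In 3 S205A libraries it was far above every control, while S205A 2 lay among the controls (2.48, SE 0.60; adjusted p 0.00124 in DESeq2). That adjusted p was not under 0.05 without control 1 or without control 2. Adamts2, the protease that removes the amino-terminal propeptide of procollagens, had the same order of mutant libraries, with 73.1, 60.7, 61.3 and 78.8 CPM in controls and 199.9, 63.4, 218 and 134 CPM in S205A (1.15, SE 0.343; adjusted p 0.0498 in DESeq2). The membrane-type metalloproteinases Mmp15 and Mmp14 had groups that did not overlap. Mmp15 was at 6.07, 3.90, 7.72 and 5.54 CPM in controls and at 14.2, 17.2, 12.8 and 7.95 CPM in S205A (1.16, SE 0.291). Its adjusted p was 0.0203 in the authors' deposited table and 0.0544 in DESeq2 here, where it passed in 3 of the 8 repeats that left out 1 library. Mmp14 differed by 0.55 (SE 0.154; adjusted p 0.279 in DESeq2). The inhibitor Timp4 was the list member with an unadjusted edgeR p under 0.05 on the lower side (-0.48, SE 0.192; p 0.0345), with overlapping groups.

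Markers of fibroblasts and the adventitia, the outer coat of the artery, had the largest median difference of the lists of cell type markers. Of 17 tested markers 14 had a positive log2 difference, the median was 1.15, and 11 had an unadjusted edgeR p under 0.05, all higher. DESeq2 put 2 past the adjusted threshold, and 6 passed in the authors' deposited table. Among all genes the shares on the higher side were 2.83% by unadjusted edgeR p, 0.365% in DESeq2 and 0.474% in the deposited table. The libraries varied widely. Their summed level was 1573, 3643, 3098 and 4120 CPM in the controls and 6028, 2996, 9099 and 4722 CPM in S205A, so that S205A 2 lay within the control range and 3 S205A libraries lay above it. Lum, which encodes lumican, a proteoglycan that binds collagen fibrils, was also above every control in S205A 1, 3 and 4 but not in S205A 2, with 11.2, 27.2, 30.3 and 56.7 CPM in controls and 183, 26.4, 173 and 60.2 CPM in S205A (1.86, SE 0.596). Fbln1, a secreted glycoprotein of the adventitia, stood at 27.3, 55.4, 48.3 and 83.5 CPM in controls and at 221, 39.2, 439.5 and 178 CPM in S205A (2.10, SE 0.684). Gsn, the actin-severing protein gelsolin, passed in DESeq2 (adjusted p 0.0433) with overlapping groups, from 652 to 1284 CPM in controls and from 962 to 4112 CPM in S205A. Its edgeR log2 fold change was 1.38 (SE 0.438). Pdgfra, the receptor most used to mark fibroblasts, was at 7.05, 10.9, 8.72 and 34.4 CPM in controls and 59.3, 13.5, 101 and 26.6 CPM in S205A (1.99, SE 0.67; adjusted p 0.304 in DESeq2). Other adventitial markers did not share the difference: Pi16, Cd34, Mfap5 and Ly6a had log2 differences of 0.23, 0.04, -0.03 and -0.37. The fibroblast marker sum and the collagen sum were both higher on average in S205A, but their order of libraries differed. Control 1 had the lowest fibroblast sum and the highest collagen sum of the controls, and S205A 4 had the highest collagen sum of all. The part of the fibroblast markers in the collagen and protease differences was not tested.

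**Figure D3:**
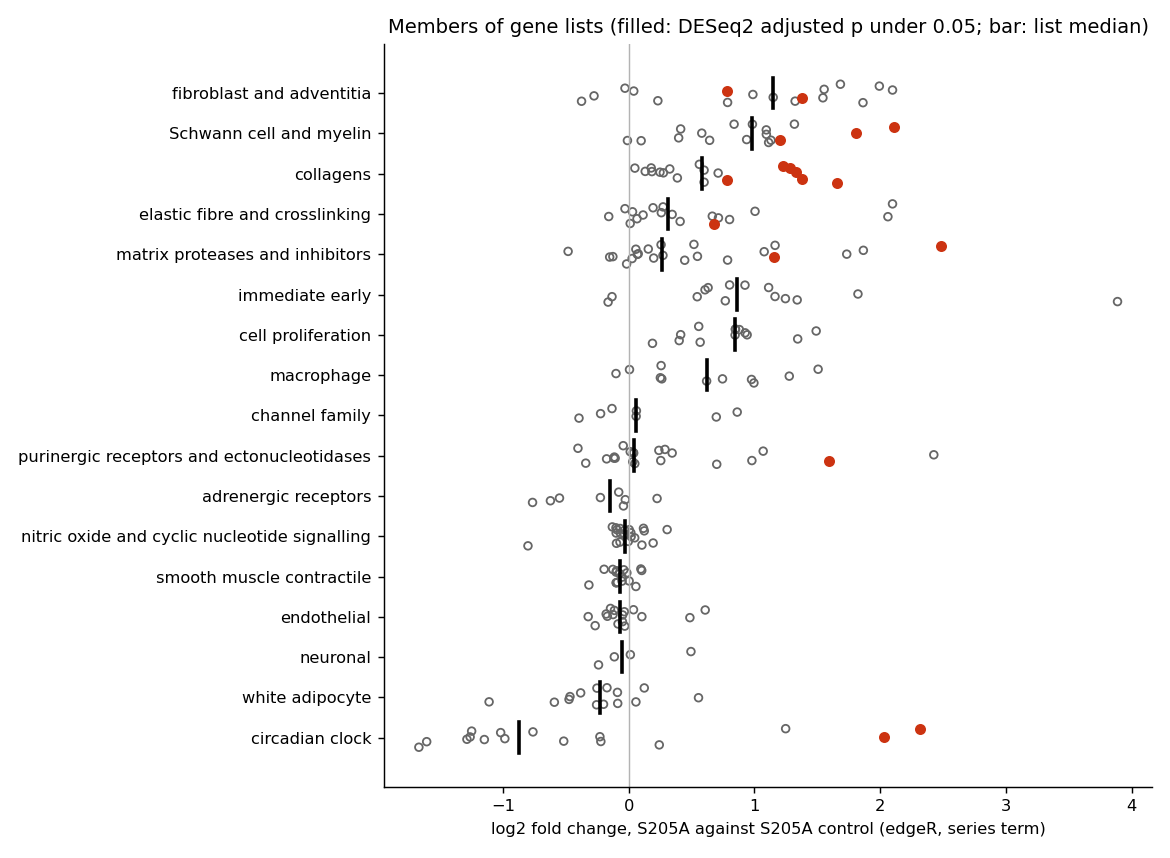
Points are the tested members of 17 gene lists, placed by log2 fold change of S205A against control from edgeR, filled where DESeq2 gave an adjusted p under 0.05, with a bar at each list's median. Fibroblast, Schwann cell and collagen members lie mostly above 0, contractile and endothelial members cluster around 0, and clock genes spread to both sides.

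Schwann cell genes separated the groups more evenly than the fibroblast markers. Schwann cells ensheath the perivascular nerves that run along mesenteric arteries. Of 17 tested markers 16 had a positive log2 difference, with a median of 0.98, and 10 had an unadjusted edgeR p under 0.05, all higher. In 8 of the 17 the groups did not overlap. DESeq2 put 3 past the adjusted threshold, and 4 passed in the authors' deposited table. Among all genes, 2.83% were higher by unadjusted edgeR p and 1.15% were higher without overlap. The shares called higher were 0.365% in DESeq2 and 0.474% in the deposited table. The summed level was 320, 257, 287 and 346 CPM in the controls and 460, 530, 608 and 383 CPM in S205A, with no overlap. Ngfr, the p75 neurotrophin receptor of glia that do not form myelin and of injured Schwann cells (chr11:95459638-95478561, minus strand, GRCm39), stood at 2.23, 1.24, 1.28 and 1.58 CPM in controls and at 7.03, 6.19, 4.80 and 4.40 CPM in S205A. The lowest S205A library lay well above the highest control. The edgeR log2 fold change was 1.81 (SE 0.303), and DESeq2 gave an adjusted p of 0.000995. Sox10, the transcription factor that defines the glial lineage, was at 11.6, 6.73, 9.50 and 9.51 CPM in controls and at 14.4, 22.6, 30.7 and 19.97 CPM in S205A (1.199, SE 0.238; adjusted p 0.00515 in DESeq2). Epb41l3, a membrane scaffold protein of axon and glia contacts, was at 1.24, 0.472, 1.11 and 0.869 CPM in controls and 5.33, 3.82, 5.16 and 2.00 CPM in S205A (2.11, SE 0.445; adjusted p 0.00541 in DESeq2).

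Other genes of the list gave mixed values. Pmp22, a membrane protein of peripheral myelin, was at 60.3 to 85.7 CPM in controls and 95.1 to 156 CPM in S205A (0.58, SE 0.187; adjusted p 0.379 in DESeq2), with no overlap. Mbp, a protein of compact myelin, differed by 0.98 (SE 0.463) with overlapping groups, and Prx by -0.01 (SE 0.154). The neuregulin receptor Erbb3 was at 3.07 to 10.3 CPM in controls and 11.8 to 19.2 CPM in S205A (1.09, SE 0.348; adjusted p 0.194 in DESeq2). Within the 22 series its difference was 1.48, and in the other series, with 1 library a side, it was 0.20. The neuronal list, whose RNA lies mostly in cell bodies outside the artery, summed to 34.2 to 66.0 CPM in controls and 33.7 to 61.6 CPM in S205A, and 0 of its 4 tested members passed an unadjusted p of 0.05.

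Outside that list, 4 further genes were put side by side after their values were seen, so they are examples and not a tested group. Lgi4, a protein secreted by Schwann cells that is needed for peripheral myelination, was at 6.90, 3.60, 4.56 and 11.5 CPM in controls and at 22.4, 15.9, 23.1 and 12.5 CPM in S205A (1.56, SE 0.286; adjusted p 0.00124 in DESeq2). It overlaps Fxyd3 in the annotation, so its counts may hold reads of that gene. Col28a1, a collagen found around peripheral glia, was at 6.95, 4.84, 6.50 and 17.2 CPM in controls and 23.5, 14.5, 23.8 and 19.4 CPM in S205A (1.35, SE 0.267; adjusted p 0.00353 in DESeq2). Only control 4 reached the mutant range for it. Sorcs2, a sortilin-family receptor that partners Ngfr, was at 1.56, 0.826, 3.61 and 3.97 CPM in controls and 10.8, 5.60, 12.9 and 8.08 CPM in S205A (1.96, SE 0.462; adjusted p 0.00808 in DESeq2). Gpr37l1, a glial receptor, was at 2.42 to 6.69 CPM in controls and 8.97 to 16.7 CPM in S205A (1.37, SE 0.309; adjusted p 0.0124 in DESeq2).

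Most genes for extracellular ATP and adenosine were near their controls, with Entpd2 and Adora2a apart. Among 21 tested receptors and ectonucleotidases 14 had a positive log2 difference, with a median of 0.04. By unadjusted edgeR p, 2 were higher and 0 lower, against 2.83% and 1.16% of all tested genes. Entpd2, an ectonucleotidase that hydrolyses ATP to ADP, stood at 10.3, 10.6, 12.5 and 12.3 CPM in controls and at 30.6, 17.4, 61.4 and 28.6 CPM in S205A. The controls were tight and every mutant library was above them (1.59, SE 0.368). It passed in DESeq2 (adjusted p 0.00383) and in the authors' deposited table (adjusted p 1.87e-05), and it stayed past the threshold in DESeq2 without any 1 of the 8 libraries. Entpd2 overlaps Npdc1 in the annotation. Adora2a, the adenosine receptor linked to vasodilation, was at 0.363, 0, 0.222 and 0.869 CPM in controls and 1.79, 1.71, 2.16 and 1.03 CPM in S205A. That is a difference at very low counts (2.43, SE 0.771), with an adjusted p of 0.0375 in the authors' deposited table and 0.137 in DESeq2 here. P2rx1, the ATP-gated channel of arterial muscle, was at 715 to 1611 CPM in controls and 925 to 1264 CPM in S205A (0.05, SE 0.236). Entpd1, the main vascular ectonucleotidase, differed by -0.04 (SE 0.125).

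The muscle genes of the artery stayed close to the controls, while the endothelial markers varied too widely among controls for closeness to be judged. Among 17 contractile genes the log2 differences ran from -0.32 to 0.10, with a median of -0.07, and 0 had an unadjusted edgeR p under 0.05. The smooth muscle actin gene Acta2 differed by -0.01 (SE 0.233) and the myosin gene Myh11 by -0.10 (SE 0.201). Among 8 tested adrenergic receptors, 1 had a positive difference and 7 a negative one, from -0.76 to 0.23, with 0 at an unadjusted p under 0.05. Adra1a, an alpha-1 receptor of arterial muscle, was at 32.1 to 69.1 CPM in controls and 47.7 to 75.04 CPM in S205A (0.23, SE 0.228). The 21 tested genes of nitric oxide and cyclic nucleotide signalling had a median of -0.03 and 0 at an unadjusted p under 0.05. The 16 endothelial markers had a median of -0.07. Their level varied more among controls than between groups, as with Pecam1, at 575, 4464, 2244 and 2831 CPM in the controls and 2189 to 2558 CPM in S205A (-0.12, SE 0.529).

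Markers of other cells that an artery preparation can hold gave no calls. The 14 white adipocyte markers had a median log2 difference of -0.23, the 11 macrophage markers 0.62 with 10 of 11 higher, and the 6 lymphoid markers 0.46. The 22 series and the other series had the same sign in 2 of the 11 macrophage and 0 of the 6 lymphoid markers. Over all tested genes that share was 50.9%. S205A 4 had the lowest summed macrophage level of the 8 libraries, at 14.5 CPM. Cell proliferation genes were all 13 on the higher side, from 0.19 to 1.49 with a median of 0.85. The 14 interferon-stimulated genes, 11 heat shock genes and 17 genes of cholesterol synthesis and uptake had medians of 0.00, -0.02 and 0.12. In these 7 lists 0 genes had an unadjusted edgeR p under 0.05. The part of these cell types in the matrix gene differences was not tested.

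**Figure D4:**
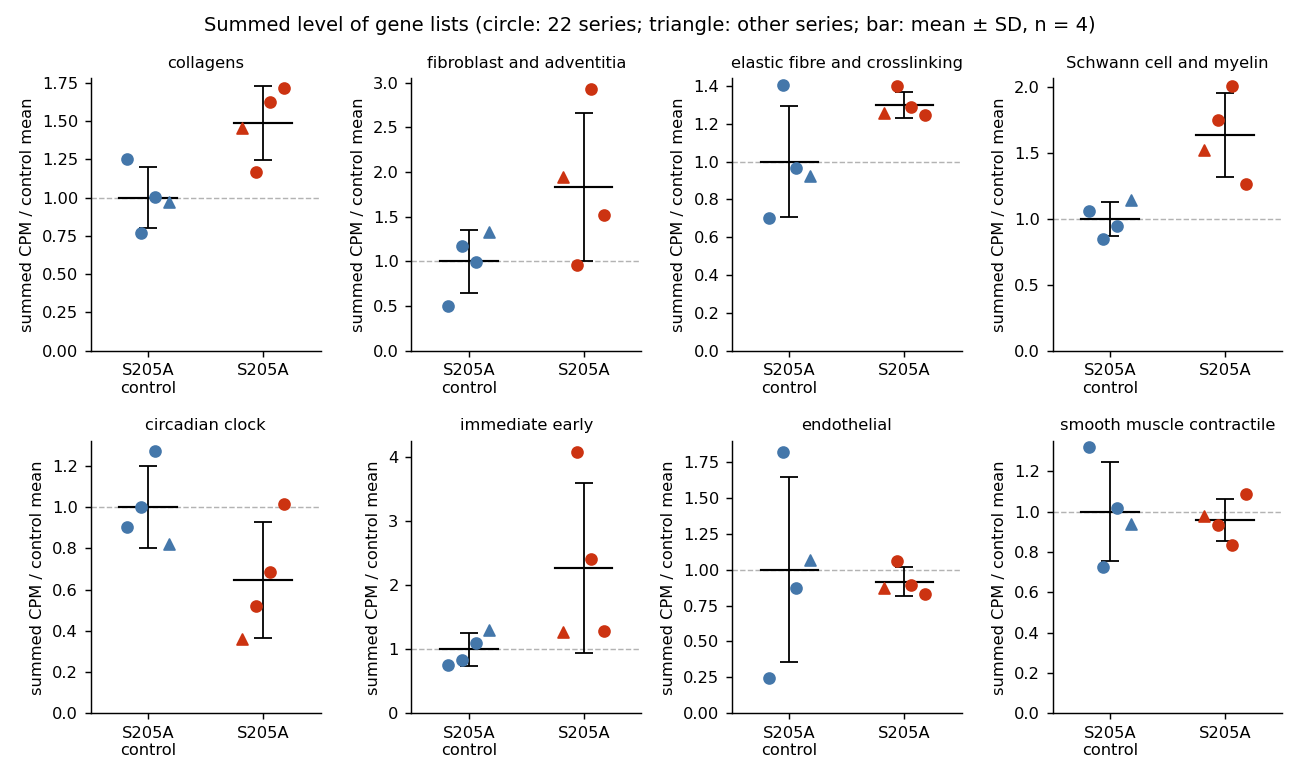
The summed CPM of 8 gene lists in each library is divided by the mean of the 4 controls (dashed line at 1), with circles for the 22 series, triangles for the other series, and bars for mean ± SD (n = 4). Schwann cell sums do not overlap between groups, collagen and fibroblast sums overlap through S205A 2, and endothelial sums spread most among the controls.

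Clock genes also separated several libraries of the groups. In the circadian clock the activators Bmal1, Clock and Npas2 drive the repressors of the Per and Cry families and output factors such as Dbp, and the arms peak at opposite times of day. Among 16 tested clock genes 12 had a negative and 4 a positive log2 difference, with a median of -0.87. By unadjusted edgeR p, 7 were lower and 2 higher, against 1.16% and 2.83% of all tested genes. Npas2 was at 6.95, 4.96, 1.61 and 6.30 CPM in controls and 42.9, 30.02, 23.2 and 7.56 CPM in S205A (2.32, SE 0.556; adjusted p 0.00145 in DESeq2). Bmal1 was at 11.2, 5.25, 2.06 and 9.45 CPM in controls and 57.6, 26.7, 28.8 and 10.6 CPM in S205A (2.03, SE 0.548; adjusted p 0.00605 in DESeq2). In both, S205A 4 was close to the controls. Dbp mirrored this, at 168, 219.6, 301 and 131 CPM in controls and 8.78, 46.5, 83.7 and 201 CPM in S205A (-1.67, SE 0.668; p 0.0409 unadjusted in edgeR). Per1 was at 141, 123, 199 and 151 CPM in controls and 18.6, 73.7, 57.0 and 141 CPM in S205A (-1.29, SE 0.49). Of the 16 clock genes 0 passed the adjusted threshold in the authors' deposited table, and Npas2 has an adjusted p of 0.486 there. Time of death or sampling is not given in the labels, and whether the clock difference has a part in the differences of other genes was not tested. The summed clock level was 625, 896, 1188 and 1754 CPM in the 4 S205A libraries and 1421 to 2200 CPM in the controls, so that S205A 4 lay within the control range.

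Promoters of clock genes were searched for the E-box CACGTG, the motif bound by the activators, and 2 examples that hold it are shown. Of the 10 repressor and output genes looked for, 9 had a RefSeq promoter (GRCm38.p6, 300 bases) and 4 held CACGTG, which reads the same on both strands, in at least 1 of their promoters. Over all 32851 promoters 7.15% hold it, a share of promoters and not of genes, and Per1 and Tef have 2 promoters each. The genes with a match were Per1, Tef, Ciart and Bhlhe41, and Dbp, Hlf, Nr1d1, Nr1d2 and Per3 held 0 in their windows. Capitals mark 1 match in the first promoter of Per1 (chr11:69098699-69098998, plus strand; the second, at chr11:69099902-69100201, holds 0) and 3 in Ciart (chr3:95882179-95882478, minus strand).
Per1: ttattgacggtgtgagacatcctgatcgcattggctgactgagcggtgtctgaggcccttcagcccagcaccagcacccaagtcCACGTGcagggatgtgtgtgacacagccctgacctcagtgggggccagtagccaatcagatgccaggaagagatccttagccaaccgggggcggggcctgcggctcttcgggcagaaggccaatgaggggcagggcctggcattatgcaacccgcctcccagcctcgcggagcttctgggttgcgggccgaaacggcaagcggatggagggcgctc
Ciart: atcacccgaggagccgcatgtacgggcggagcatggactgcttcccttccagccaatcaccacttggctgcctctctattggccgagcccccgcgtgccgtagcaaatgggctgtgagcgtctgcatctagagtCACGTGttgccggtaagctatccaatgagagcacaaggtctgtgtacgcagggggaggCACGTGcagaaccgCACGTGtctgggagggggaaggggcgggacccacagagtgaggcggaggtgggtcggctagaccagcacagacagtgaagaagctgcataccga
Ciart, a repressor of the clock activators, was at 9.34, 9.09, 32.5 and 9.07 CPM in controls and 0.648, 2.63, 5.28 and 15.9 CPM in S205A (-1.61, SE 0.796).

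Immediate early genes, transcription factors that are switched on within minutes of a stimulus or of handling tissue, stood out in 2 of the S205A libraries. Of 14 tested genes 12 had a positive log2 difference, with a median of 0.86. An unadjusted edgeR p under 0.05 was found for 7, all higher, against 2.83% of all tested genes. The adjusted threshold was passed by 0 in edgeR, DESeq2 or the authors' deposited table. In some of the 29 alternative fits single genes did pass, such as Fos, Egr1 and Fosb in 3 fits each and Nr4a1 and Junb in 4 each. Fos was at 149, 67.5, 197 and 252 CPM in controls and 329.6, 1113, 638 and 244 CPM in S205A. Fosb differed by 4.52 within the 22 series and by -1.10 in the other series, and Egr1 by 1.70 and -0.39. Summed over the list, S205A 2 stood at 5196 CPM and S205A 3 at 3072 CPM, while S205A 1 and 4, at 1624 and 1643 CPM, were inside the control range of 965 to 1666 CPM. The part of these genes in other differences was not tested.

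**Figure D5:**
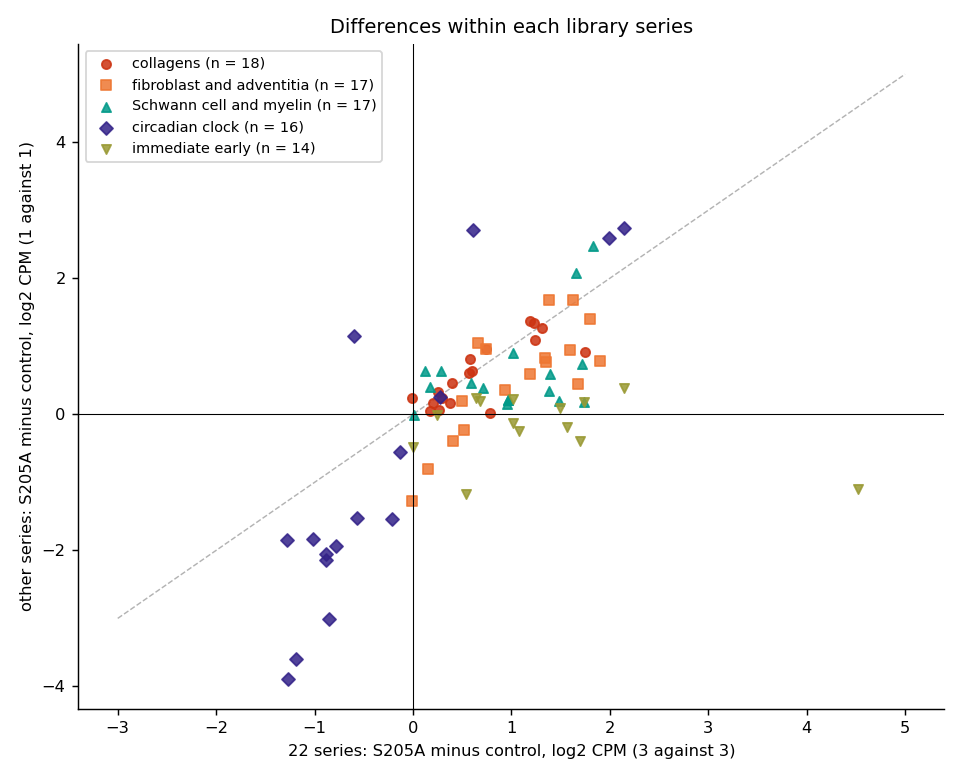
For members of 5 gene lists, the horizontal axis gives S205A minus control in log2 CPM within the 22 series (3 against 3 libraries) and the vertical axis the same difference in the other series (1 against 1), with equal differences on the dashed line. Most collagen and Schwann cell genes lie in the upper right, most clock genes in the lower left, and several immediate early genes lie to the right with differences near or below 0 in the other series.

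The sizes of the differences within each library series are given for some of these genes. Both series entered the tests that chose them, so a shared direction is a description and no independent support. Col1a1 differed by 1.19 in the 22 series and 1.38 in the other, Col3a1 by 1.24 and 1.09, Entpd2 by 1.49 and 1.31, and Ngfr by 1.66 and 2.08. Sox10 differed by 1.40 and 0.59, and Kcna1, a potassium channel of axons named after its values were seen, by 2.51 and 0.20 (adjusted p 0.0346 in DESeq2 and 0.621 in the authors' deposited table).

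The DESeq2 fit was also repeated with each of the 8 libraries left out in turn, and 69 of its 71 calls were followed, those that edgeR had tested too. Ngfr, Lgi4, Col1a1, Col3a1, Col5a3, Entpd2 and Olfml3, 7 of the 69, passed in all 8 repeats. Col1a2, Col28a1, Sorcs2 and Nat8f3 did not pass without S205A 3, and Npas2 did not pass without control 2. Adm did not pass without control 1, and Wnt5a without control 1 or control 2. Sox10, Adam19 and Gpr37l1 did not pass without control 3 or without S205A 3, and Foxs1 without control 4 or S205A 1. The calls of Eeig1 and Gpr153 were lost without S205A 3 or S205A 4. Those of Efs, Spry1 and Epb41l3 were lost without control 4, S205A 1 or S205A 3. Col14a1 passed in 5 of the 8 repeats, Bmal1 and Adcyap1r1 in 4, Itga11, Col15a1, Klf15, Kcna1 and mt-Atp8 in 3, Eln in 2, and Gsn, Adamts2 and Irf2bpl in 1. Gm10699 and Gm44891, which are 2 of the 4 lower calls, passed in 0 of the 8 repeats, with 5 not past the threshold and 3 in which DESeq2 gave no adjusted p. With the same libraries left out, the edgeR log2 fold change ranged from 0.61 to 0.80 for Eln and from 0.85 to 1.61 for Gsn. It ranged from 0.82 to 1.41 for Adamts2, from 1.34 to 2.42 for Fbln1 and from 1.15 to 2.16 for Lum. Leaving out control 4 or S205A 1 leaves the other series with 1 library, which then adds nothing to the comparison.

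Other higher genes with small p-values came from several functions. Adam19, a membrane protease, was at 18.05, 12.8, 13.5 and 19.0 CPM in controls and 29.7, 25.5, 29.5 and 32.8 CPM in S205A (0.90, SE 0.154; adjusted p 0.00356 in DESeq2). Efs, an adaptor protein of the Cas family, was at 5.05 to 7.28 CPM in controls and 10.4 to 14.8 CPM in S205A (1.03, SE 0.177; adjusted p 0.00293 in DESeq2). Spry1, a feedback inhibitor of growth factor signalling, was at 7.06 to 13.3 and 16.5 to 33.4 CPM (1.25, SE 0.23; adjusted p 0.00293 in DESeq2). Itga11, a collagen receptor subunit of fibroblasts, was at 26.3 to 40.7 and 47.2 to 67.6 CPM (0.79, SE 0.149; adjusted p 0.00879 in DESeq2 and 0.162 in the authors' deposited table). None of these 4 genes overlapped between groups. Eeig1 (1.22, SE 0.243) and the orphan receptor gene Gpr153 (1.77, SE 0.416) were also apart, as was Olfml3, a secreted matrix protein gene (1.66, SE 0.376). Irf2bpl differed by 0.52 (SE 0.0987), with S205A 1 at 84.6 CPM inside the control range (adjusted p 0.0328 in DESeq2 and 0.296 in the authors' deposited table). The acetyltransferase-family gene Nat8f3 had low counts, at 0.177 to 0.706 CPM in controls and 1.49 to 3.66 CPM in S205A (2.71, SE 0.514).

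Of the 67 genes higher in DESeq2, 51 belonged to none of the lists. Some were named after their values were seen because they are vascular or neural signals. Wnt5a, a secreted ligand, was at 3.53, 11.1, 7.72 and 22.9 CPM in controls and 56.2, 15.9, 63.8 and 34.4 CPM in S205A (2.08, SE 0.528; adjusted p 0.00292 in DESeq2). Adm, which encodes the vasodilator adrenomedullin, was at 1.97, 2.24, 1.94 and 5.11 CPM in controls and 15.4, 6.06, 29.6 and 5.95 CPM in S205A (2.45, SE 0.602; adjusted p 0.00288 in DESeq2). Adcyap1r1, the receptor of the neuropeptide PACAP, was at 1.87 to 2.50 CPM in controls and 2.83 to 15.4 CPM in S205A (1.97, SE 0.494; adjusted p 0.0157 in DESeq2). Foxs1, a transcription factor of pericytes and neural crest derivatives, was at 18.7 to 53.2 CPM in controls and 57.2 to 97.7 CPM in S205A (1.29, SE 0.287; adjusted p 0.00383 in DESeq2). Adm, Adcyap1r1 and Foxs1 did not overlap between groups, and Wnt5a did. The authors' deposited table gives Adm and Foxs1 adjusted p-values of 0.0584 and 0.0767, so these calls were not shared.

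Fewer genes were lower in S205A, and their differences ran from small to large. Jarid2, a component of Polycomb complexes, had the tightest groups, at 32.1, 30.5, 34.6 and 33.1 CPM in controls and 26.6, 24.4, 24.4 and 22.6 CPM in S205A (-0.41, SE 0.0961; adjusted p 0.263 in DESeq2). Klf15, a glucocorticoid-responsive and clock-linked factor, was at 65.9, 25.1, 40.7 and 25.3 CPM in controls and 10.2, 19.0, 20.4 and 24.9 CPM in S205A. It passed in DESeq2 (adjusted p 0.0336, against 0.113 in the authors' deposited table), with only a narrow gap between control 2 and S205A 4. Its edgeR log2 fold change was -1.10 (SE 0.276). Rfx2 (-0.68, SE 0.159), the bicarbonate transporter gene Slc4a8 (-0.58, SE 0.141), the ubiquitin ligase gene Peli1 (-0.46, SE 0.116), the vitamin transporter gene Slc5a6 (-0.53, SE 0.148), the Notch coactivator gene Maml2 (-0.38, SE 0.102) and the Wnt receptor gene Fzd9 (-1.09, SE 0.312) had groups that did not overlap and adjusted p-values of 0.108 to 0.489 in DESeq2. Ifrd2 (-0.47, SE 0.122) and Net1 (-0.60, SE 0.162) overlapped.

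The lower calls of the authors' deposited table were Gm10699, Gm44891, 9130213A22Rik and Zc3h8. Zc3h8, a zinc finger protein of small nuclear RNA transcription, was at 3.63, 3.66, 2.50 and 5.38 CPM in controls and 2.39, 1.45, 2.04 and 1.36 CPM in S205A (-1.05, SE 0.293; adjusted p 0.0498 in the authors' deposited table and 0.22 in DESeq2 here). Gm10699 was at 1.12 ± 0.272 CPM (SD, n = 4) in controls and 0.0963 ± 0.0845 CPM (SD, n = 4) in S205A with no overlap, and Gm44891, which overlaps Chst15 and Fgfr2, at 0.726 to 2.06 and 0.0658 to 0.349 CPM. Both rest on few counts. mt-Atp8, a mitochondrial gene that overlaps mt-Atp6, was lower in DESeq2 (-0.61; adjusted p 0.0498), at 67.1, 53.5, 52.7 and 349 CPM in controls and 299.8, 36.1, 34.0 and 32.8 CPM in S205A. Its level followed the library series far more than the genotype.

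Around Panx1 itself, in a window of 5 Mb on either side that was chosen after the data were seen, 25 genes were tested. An unadjusted edgeR p under 0.05 was found for 2 of them (8%, against 4% of all genes), Maml2 and Naalad2 (1.40, SE 0.463), and DESeq2 put 0 of 29 past the adjusted threshold.

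In a comparison chosen after the data were seen, the S205A line was set beside the controls of the other lines. This used the other series only, where S205A control 4, S205A 1 and 9 libraries of the wild type, Y198F control and Y308F control groups lie. Over the 67 genes higher in DESeq2, S205A 1 was within the range of those 9 libraries for 58 genes and above it for 9. S205A control 4 was within the range for 29 genes and below it for 38. The median of the 9 libraries was nearer on the log2 scale to S205A 1 than to S205A control 4 for 55 genes. Ngfr was at 1.58 CPM in S205A control 4 and at 7.09 CPM in S205A 1, with 2.57 to 12 CPM in the 9 libraries. Entpd2 was at 12.3 and 30.9 CPM, with 22.5 to 46.8 CPM in the 9 libraries. Col5a3 was at 28.3 and 69.2 CPM, with 51.0 to 129 CPM. Col1a1 differed from this pattern, at 537 CPM in S205A control 4, 1407 CPM in S205A 1 and 642 to 1339 CPM in the 9 libraries, so that the mutant was above all of them and the control below. The 67 genes were chosen with S205A control 4 and S205A 1 in the test, each stands for its group as 1 library, and the lines may come from separate colonies, so this is a description without a test. The same counts over all tested genes are not given, so the counts above do not show which library is unusual.

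Whether the S205A effect differed from the effects of other Panx1 alleles was tested as a difference of effects in a fit of all 26 libraries. Against the Y308F effect (a tyrosine of pannexin 1 replaced by phenylalanine, 3 mutant and 3 control libraries), edgeR found 0 of 18715 genes past an adjusted p of 0.05 (0%) and 1152 at an unadjusted p under 0.05 (6.16%), and DESeq2 found 0. Ngfr was among the leading genes, with a log2 difference of effects of 2.92 (SE 0.67; adjusted p 0.669 in edgeR). In that fit's scaling Ngfr was at 1.57 ± 0.455 CPM (SD, n = 4) in S205A controls and 5.57 ± 1.27 CPM (SD, n = 4) in S205A, against 8.15 ± 2.46 CPM (SD, n = 3) in Y308F controls and 3.81 ± 1.15 CPM (SD, n = 3) in Y308F. Against the effect of Panx1 knockout, 1340 genes had an unadjusted edgeR p under 0.05 (7.16%) and 3 passed the adjusted threshold (0.016%), Gm15446, Tmem254 and Plac9, with log2 differences of 3.71 (SE 0.397; adjusted p 4.91e-05), 1.76 (SE 0.213; adjusted p 0.000217) and 1.78 (SE 0.271; adjusted p 0.00681). All 3 were near their controls in S205A, at 0.06 (SE 0.232), -0.10 (SE 0.139) and -0.20 (SE 0.267), and low in the knockout. Gm15446 was at 0.799 ± 0.285 CPM (SD, n = 3) there and at 9.83 ± 3.86 CPM (SD, n = 3) in the wild type libraries. Tmem254 was at 17.9 ± 2.62 against 63.8 ± 15.2 CPM and Plac9 at 93.0 ± 2.42 against 359.9 ± 34.3 CPM in the same groups (SD, n = 3 each). Plac9 overlaps Anxa11. DESeq2 put 15 genes past the threshold of that test.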

How the data were processed

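Paired-end reads of 150 bases from polyadenylated RNA were aligned with STAR 2.7.9a and counted with featureCounts (Rsubread 2.20.0), per the submitters' processing notes. The genome annotation release and the strand setting are not given in the sources used here, so overlapping genes are uncertain. The authors' deposited table of counts holds whole raw counts per gene. Their deposited comparison table (DESeq2 1.46.0, per the submitters' processing notes) gives for each gene the mean of the normalized signal, the fold change in log2 units and its error, the Wald statistic (a score), and raw and adjusted p-values.

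From the counts, edgeR 4.0.16 (R 4.3.3) fitted the 8 libraries with TMM scaling, filterByExpr, a group term and a library series term, and a robust quasi-likelihood test with Benjamini-Hochberg adjustment at 0.05. DESeq2 1.42.0 was run with the same terms, and limma 3.58.1 (voom) as an alternative. Standard errors of edgeR fold changes were taken as the fold change over the square root of F. Each SE beside a fold change is that of edgeR, also where the adjusted p is from DESeq2 or the authors' deposited table. Differences within a series used log2 CPM with a prior count of 2. Of 57010 gene identifiers 56310 matched GENCODE vM39, used for coordinates on GRCm39. Scripts were tested on simulated data.

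Named genes were Panx1 to Panx3, and up to 12 protein-coding genes per direction with the smallest edgeR p. Those chosen by p had an average of 1 log2 CPM or more and the same sign in both series. Added were the 10 higher genes with the smallest adjusted p and all lower genes of the authors' deposited table. Up to 5 genes per list were taken by p. The rule also took up to 10 genes that passed in the largest number of the 29 alternative fits, 12 or 13 fits for each. Genes outside this rule, such as Col14a1, Col4a1, Col4a2, Col6a1, Col6a2, Mfap4, Lox, Timp4, Pdgfra, Pi16, Cd34, Mfap5, Ly6a, Mbp, Prx, Pmp22, Erbb3, Dbp, Ciart, P2rx1, Entpd1, Acta2, Myh11, Pecam1, Gja4 and Gja5, were chosen after their values were seen. The members and lists were chosen with earlier results of these data known. Results on some genes are not reported here. No libraries of the line were left out, and replicate pairs differed by more than sampling noise.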

Additional observations from a re-analysis of the deposited data

Results flagged for a closer look

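In 7 of the 130 groups of 4 libraries examined (5.38%), 1 library lay far from the other 3 by Dixon's criterion, where chance gives about 1 in 20. For mt-Atp8 these were control 4 at 349.5 CPM, with the next control at 67.1 CPM, and S205A 1 at 299.8 CPM, with the next mutant at 36.1 CPM, which are the libraries of the other series. Net1 was at 438 CPM in S205A 1 against 235 CPM in the next library. Col1a2 was at 386.5 CPM in control 2, below the next control at 588 CPM. The transcript 9130213A22Rik was at 0.0646 CPM in S205A 4 and at 0 in the other 3 mutants. The purinergic list summed to 2047 CPM in S205A 4 and to 1712 CPM in the next mutant. The mesothelium list summed to 20.1 CPM in S205A 1 and to 3.66 CPM in the next mutant.

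The effect of S205A differed from that of Panx1 knockout by 3.71 on the log2 scale for Gm15446, by 1.78 for Plac9 and by 1.76 for Tmem254, in edgeR's test of the difference itself. The adjusted p-values were 4.91e-05, 0.00681 and 0.000217.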

How the results depend on the processing

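edgeR gave 0 genes past the adjusted threshold with TMM, with other scaling, without the filter and without each library in turn, and limma gave 0 as well (791 at an unadjusted p under 0.05). DESeq2 gave 71, and 93 on all 26 libraries without a series term. DESeq2 on the 8 libraries gave 47 without the series term, and from 18 to 178 when 1 library was left out. Deviations of same-numbered libraries correlated at -0.187, 0.114, 0.192 and -0.374, and at 0.414, 0.007, 0.097 and 0.04 with the series difference removed. Not every pair was above 0.1 either way, so the numbers were not taken to pair the libraries. With the replicate block and the series term edgeR gave 1 gene, Dbp (-1.93, SE 0.117), and DESeq2 gave 139. For the difference from the knockout effect, DESeq2 gave 15 genes against 3 in edgeR, which gave 2 to 6 when 1 library was left out (6 without S205A 2). The cause of these changes was not tested. Direction was checked in the edgeR and limma alternatives, DESeq2 with the series term, and DESeq2 on all 26 libraries. Of 179 tested genes that the naming rule or DESeq2 gave, 147 kept the direction of the main edgeR fit in all of these. In at least 1 of them 32 changed it, none past the threshold there. The other DESeq2 fits were not part of this check. Panx1 rests on 16 to 95 counts per library, which limits the precision of its difference.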
